A study of Mus musculus with 63 samples.

Results

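Egr1, Fos, Fosl1, Junb, Ier2, Ier3, Myc, Etv4 and Etv5 are 9 of the 47517 gene symbols counted. They were taken by name as immediate early genes and targets of the mitogen-activated kinase ERK, a rule that uses no measured value. Earlier results of these data were, however, known when they were chosen. All 9 were found in all 22 RNA-seq count tables, and all 9 passed the filter on low counts in each of the 3 models fitted. Levels are in CPM, the reads of a gene per 1000000 reads counted on genes in that library.

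Immediate early genes are transcribed within minutes of a growth factor signal, without new protein synthesis. The kinase chain of RAS, RAF, MEK and ERK phosphorylates factors already bound at their promoters, among them the serum response factor SRF and its ETS-family partners. Their products, such as the zinc finger factor Egr1 and the AP-1 subunits Fos, Fosl1 and Junb, then switch on later genes. Etv4 and Etv5 are ETS factors that follow sustained ERK signalling downstream of FGF receptors. Mouse embryonic stem cells make their own FGF4, and blocking MEK holds them in naive pluripotency.

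The series concerns YY1, a zinc finger transcription factor, in embryonic stem (ES) and extended pluripotent stem (EPS) cells of C57BL/6 mice. ES cells were kept in 2i medium, which holds inhibitors of MEK and GSK3, and EPS cells in LCDM medium, which holds LIF, a GSK3 inhibitor, dimethindene and minocycline and no MEK inhibitor. Both were serum-free, grown either on Matrigel or on feeders, mouse embryonic fibroblasts inactivated with mitomycin C, and the labels do not say which a library had. The groups were ES and EPS cells with no construct named (n = 3 each, called untransduced here), EPS cells carrying a control or a Yy1 short hairpin (EPS shCtrl and EPS shYy1, n = 2 each) and ES cells carrying a control or a Yy1 overexpression construct (ES oeCtrl and ES oeYy1, n = 2 each). The last 4 lines were sampled again after 6 days in F4H medium (day 6, n = 2 each). Sample titles name the day 6 controls shCtrl and oeCtrl, while their genotype label reads only control. Nothing in the labels says whether replicates were separate cultures or whether a line was 1 clone, and the p-values reflect the spread among these libraries, which may be technical. Day 6 libraries came with a later submission that names its own library kit. Their medium differed as well, so stage, medium and preparation cannot be told apart.

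Libraries held 13672061 to 20782348 reads on genes, and 3 counts, taken as the floor, corresponded to 0.144 to 0.219 CPM, a limit that covers counting error only. Yy1 itself was at 134 and 134 CPM in the EPS shCtrl libraries and at 70.5 and 70.5 CPM in EPS shYy1. It was at 120 and 124 CPM in ES oeCtrl and at 934 and 941 CPM in ES oeYy1. On day 6 Yy1 was not called in the hairpin line, with 129 and 123 CPM in EPS shCtrl against 114 and 110 CPM in EPS shYy1 (log2 −0.03 ± 0.05 SE, adjusted p = 0.567), while ES oeYy1 held 331 and 324 CPM against 120 and 126 CPM. All 10 pluripotency markers were above 1 CPM in every undifferentiated group, and their summed level fell from 5063 to 8113 CPM there to 226 to 477 CPM on day 6. Summed trophoblast markers went from 121 to 211 CPM to 3244 to 6325 CPM, mesendoderm markers from 7.80 to 35.2 CPM to 209.9 to 693 CPM and primitive endoderm markers from 11.4 to 75.8 CPM to 83.1 to 221 CPM. The keratins Krt8 and Krt18 made up most of the trophoblast sum in every day 6 line, with means of 3161 and 2181 CPM in day 6 ES oeCtrl. Neural markers summed to 98.5 to 159 CPM before and 111 to 409 CPM on day 6, and heat shock genes to 2285 to 4770.0 CPM and 2315 to 3039 CPM. Before day 6 the heat shock sum was 2285 to 2631 CPM in ES oeCtrl, 4355 to 4385 CPM in ES oeYy1 and 2949 to 3057 CPM in ES. It was 3074 to 3223 CPM in EPS, 4263 to 4770 CPM in EPS shCtrl and 3925 to 4091 CPM in EPS shYy1. Libraries also stood apart in ways the labels do not describe. Summed Y-linked genes were at 63.0 to 75.7 CPM in ES and at 14.1 to 25.2 CPM in EPS. They were at 2.59 to 2.71 CPM in EPS shCtrl and at 139 to 139.7 CPM in EPS shYy1. In ES oeCtrl they were at 108 to 128 CPM and in ES oeYy1 at 25.6 to 26.6 CPM. On day 6 they were at 16.3 to 17.0 CPM in EPS shCtrl, 167 to 175 CPM in EPS shYy1, 100.0 to 104 CPM in ES oeCtrl and 65.8 to 71.2 CPM in ES oeYy1. Replicate 3 of ES and replicate 3 of EPS deviated together from their group means (r = 0.575 across genes, which are not independent replicates).

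Promoter stretches from Fos, Junb, Ier3 and both listed starts of Etv5 are printed, to show windows that were searched for motifs of the pathway's factors and of YY1. Each is the 120 bases before an annotated start, 5′ to 3′ on the gene's strand, from RefSeq on GRCm38.p6. Capitals mark matches, on either strand, to TGACGT (the core of the cAMP response element), GGAAGT (an ETS core), TATAAA (a core promoter box) and ATGGCGGC (the core of the YY1 motif). The CArG box bound by SRF and TGANTCA (the AP-1 site) were searched as well and had no match in these stretches.
Fos, chr12:85473770-85473889, plus strand: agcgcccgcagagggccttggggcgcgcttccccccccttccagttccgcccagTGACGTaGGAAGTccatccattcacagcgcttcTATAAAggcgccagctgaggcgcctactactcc
Junb, chr8:84978749-84978868, minus strand: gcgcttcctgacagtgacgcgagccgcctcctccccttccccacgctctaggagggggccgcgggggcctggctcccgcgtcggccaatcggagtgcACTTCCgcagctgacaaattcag
Ier3, chr17:35821593-35821712, plus strand: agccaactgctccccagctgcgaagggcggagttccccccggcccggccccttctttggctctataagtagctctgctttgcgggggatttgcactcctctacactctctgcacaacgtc
Etv5, first start, chr16:22439571-22439690, minus strand: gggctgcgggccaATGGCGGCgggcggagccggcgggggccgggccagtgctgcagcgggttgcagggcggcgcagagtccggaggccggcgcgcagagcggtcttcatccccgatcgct
Etv5, second start, chr16:22438369-22438488, minus strand: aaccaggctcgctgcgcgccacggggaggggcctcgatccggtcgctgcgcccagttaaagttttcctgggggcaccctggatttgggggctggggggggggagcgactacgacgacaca

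In the Fos stretch the TGACGT match lay 66 to 61 bases before the start, the GGAAGT match 59 to 54 bases and the TATAAA match 33 to 28 bases. Junb had 1 GGAAGT match, on the opposite strand, 23 to 18 bases before its start. Etv5 had an ATGGCGGC match 107 to 100 bases before its first start. The Ier3 stretch and that before the second start of Etv5 held no match to the motifs searched. Of 32851 promoter stretches of the same length in the table, 4.55% held TGACGT, 11.6% GGAAGT, 6.34% TATAAA, 0.517% ATGGCGGC, 3.41% TGANTCA and 0.749% a CArG box. Matching letters are a description and say nothing of whether a factor was bound.

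The genes lie on chromosomes 18 (Egr1), 12 (Fos), 19 (Fosl1), 8 (Junb and Ier2), 17 (Ier3), 15 (Myc), 11 (Etv4) and 16 (Etv5). The highest group mean was 148 times the lowest for Egr1, 121 times for Myc, 80.0 times for Fos and 40.6 times for Ier3, which encodes a regulator of survival and of ERK dephosphorylation. It was 17.3 times for Fosl1, 11.7 times for Junb, 10.0 times for Etv4, 9.03 times for Etv5 and 3.88 times for Ier2, a nuclear immediate early protein. Egr1 was highest in day 6 ES oeYy1 (322 CPM) and lowest in ES oeCtrl (2.18 CPM), and libraries of neighbouring groups in its order overlapped only among day 6 ES oeCtrl, day 6 EPS shYy1 and EPS shYy1. Fos was highest in day 6 EPS shCtrl (199.7 CPM) and lowest in ES oeYy1 (2.50 CPM). Etv4 and Etv5 were both highest in EPS shCtrl, at 309 and 629 CPM.

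**Figure D1:**
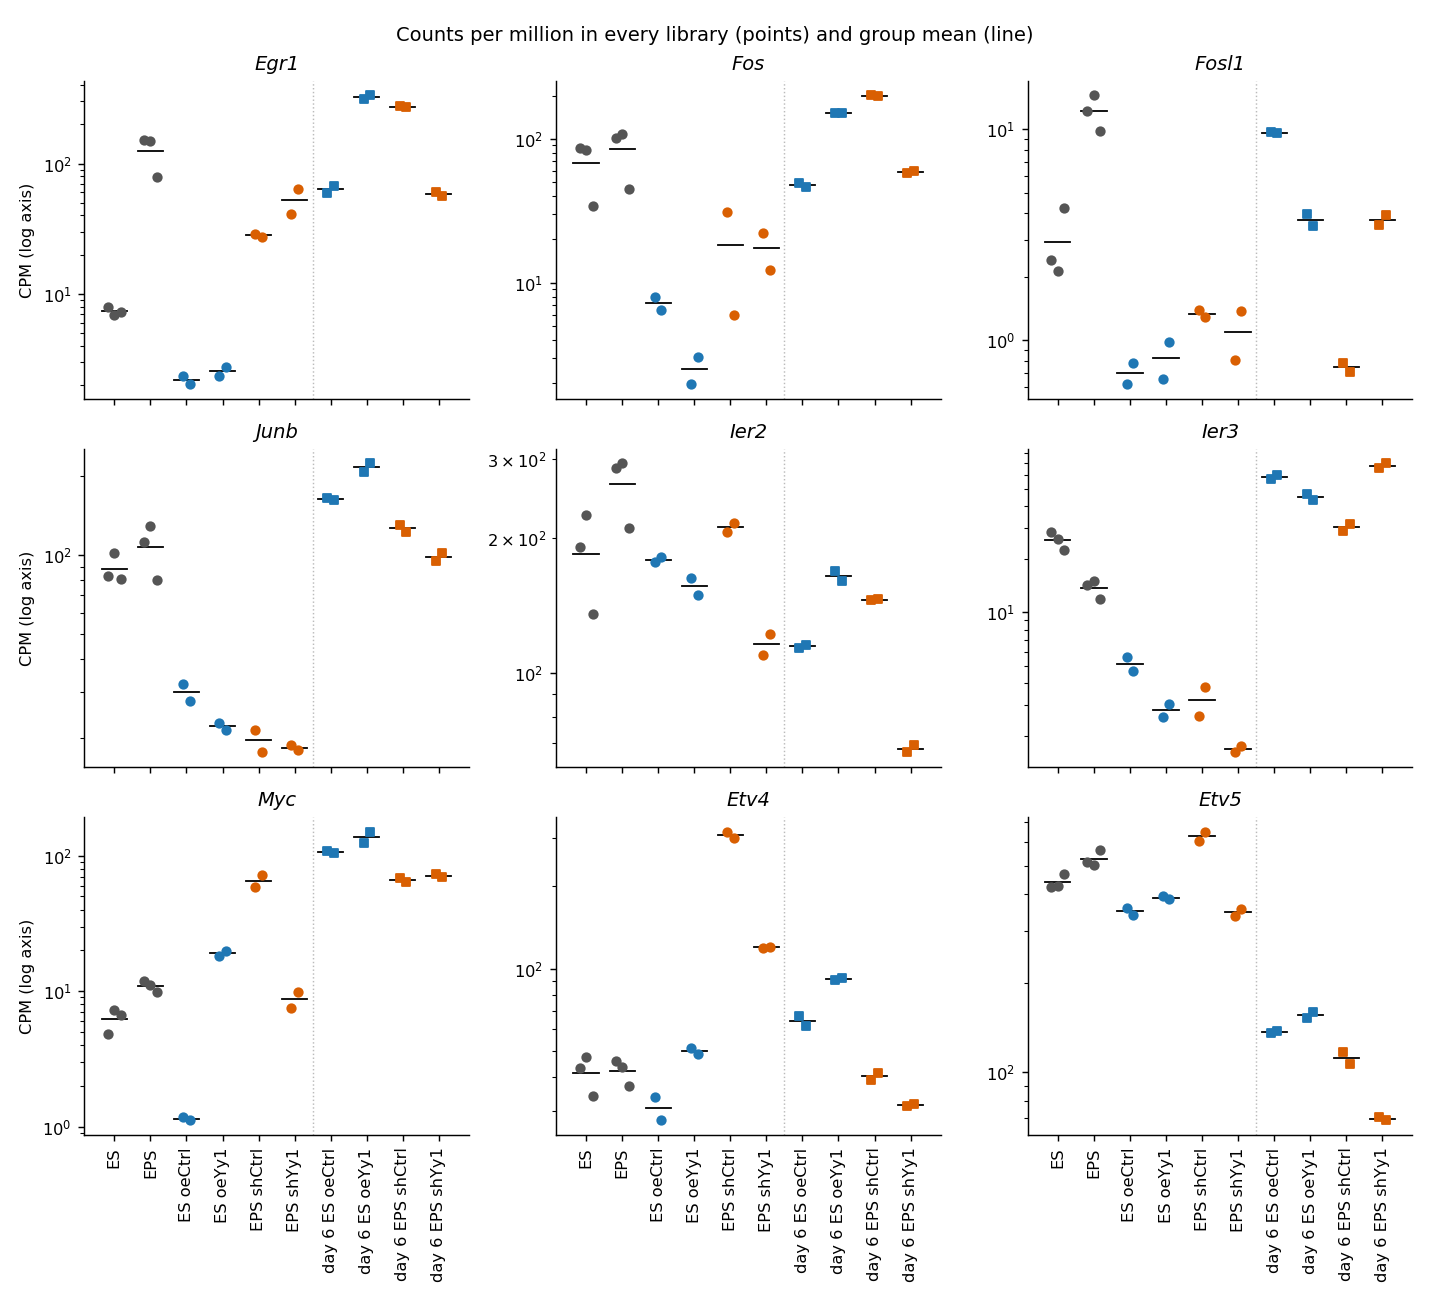
CPM (log axis) of the 9 genes in each of the 22 libraries, 1 panel per gene; points are libraries, black lines group means, circles undifferentiated and squares day 6 libraries, grey untransduced, blue ES-derived and orange EPS-derived construct lines. Egr1 means run from 2.18 CPM in ES oeCtrl to 322 CPM in day 6 ES oeYy1, while Etv5 is at 68.8 to 160.2 CPM in the day 6 libraries and at 338 to 651 CPM in the others.

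EPS cells held far more Egr1 than ES cells, and more Fosl1, Myc, Ier2 and Etv5, but less Ier3. Only the medium of the ES cells held a MEK inhibitor. Cell state and medium thus cannot be told apart in any comparison of EPS with ES cells. Egr1 was at 151, 149 and 78.2 CPM in the EPS libraries and at 7.97, 6.83 and 7.28 CPM in the ES libraries. Every EPS library was thus far above every ES library, an 18.1-fold difference (log2 4.18 ± 0.26 SE, adjusted p = 4.45e-08). Fosl1, an AP-1 subunit that rises later than Fos after stimulation, was at 12.2, 14.5 and 9.86 CPM in EPS and at 2.40, 2.12 and 4.24 CPM in ES. Its groups did not overlap either (log2 2.14 ± 0.27, adjusted p = 1.74e-05), and ES replicate 3 was the highest of its state. Myc, the E-box factor that drives growth and metabolism, was at 11.8, 11.1 and 9.92 CPM in EPS and at 4.80, 7.30 and 6.68 CPM in ES (log2 0.88 ± 0.18, adjusted p = 0.00134). Etv5 rose by log2 0.33 ± 0.08 (adjusted p = 0.00722), from 425, 425 and 467 CPM in ES to 514, 501 and 566 CPM in EPS, without overlap.

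Ier3 went the other way, from 28.7, 26.2 and 22.5 CPM in ES to 14.4, 15.2 and 11.9 CPM in EPS (log2 −0.83 ± 0.18, adjusted p = 0.00184). Fos was at 85.7, 84.0 and 34.2 CPM in ES and at 102, 108 and 45.1 CPM in EPS, so that the spread inside each state exceeded the difference (log2 0.40 ± 0.59, 95% interval −0.75 to 1.55, adjusted p = 0.656). In both states replicate 3 was the low one. Junb (log2 0.35 ± 0.16, adjusted p = 0.108) and Etv4 (log2 0.08 ± 0.13, adjusted p = 0.675) did not pass the test. With the replicate number as a block Junb passed, at log2 0.32 and adjusted p = 0.0222.

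In all, 5 of the 9 genes rose and 1 fell, where 30.6% of all 16440 genes tested were called, 13.8% higher and 16.9% lower. Their median log2 difference was 0.40, against −0.0046 over all genes. Without replicate 3 of both states, a choice made after the values were seen, 7 of 9 were called (6 higher, 1 lower), where the genes called over the whole table went from 5033 to 5352, with Egr1 at log2 4.43 and Junb at 0.48 (adjusted p = 0.00312). Junb was called without EPS replicate 3 as well (adjusted p = 0.00191). The rise of Ier2, at 287, 294 and 211 CPM in EPS and 191, 226 and 136 CPM in ES (log2 0.59 ± 0.17, adjusted p = 0.0181), was not called without ES replicate 3 (0.0529), EPS replicate 1 (0.0719) or EPS replicate 2 (0.0759), nor in a fit of these 6 libraries alone (0.0631).

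Most fibroblast markers moved opposite to Egr1 and together with Ier3. Of 13 tested, 8 were lower in EPS and none higher, where 16.9% of all genes were lower. Mean Vim was at 489 CPM in ES and at 574 CPM in EPS. Col1a1, the main collagen of fibroblasts, ranged from 657 to 1286 CPM in the ES libraries and from 57.7 to 183 CPM in the EPS libraries. Leaving out Vim and Fn1, which pluripotent cells also hold, the 12 remaining markers summed to between 2192 and 3974 CPM for ES and between 247 and 778 CPM for EPS, and 13 of 14 markers were above 1 CPM in each state, S100a4 being at 0. Their part in these differences was not tested, and neither was that of the Y-linked difference given above. In such bulk libraries fewer cells of a type and less RNA per cell cannot be told apart.

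The construct-carrying control lines differed from the untransduced cells in most of the 9 genes. ES oeCtrl held less than ES of 8 genes and more of none, where 50.6% of all genes were called, 25.5% higher and 25.1% lower. Fos stood at 7.98 and 6.47 CPM in ES oeCtrl (log2 −3.30 ± 0.81, adjusted p = 0.00852), below all ES libraries. Egr1 was at 2.34 and 2.03 CPM (log2 −1.81 ± 0.37, adjusted p = 0.000998), Myc at 1.17 and 1.11 CPM (log2 −2.50 ± 0.28, adjusted p = 1.75e-06) and Ier3 at 5.57 and 4.64 CPM (log2 −2.39 ± 0.23, adjusted p = 4.07e-07). Junb, the AP-1 subunit that often restrains Jun, was at 32.3 and 27.6 CPM against 83.0, 101 and 80.5 CPM in ES (log2 −1.62 ± 0.19, adjusted p = 4.91e-06). Fosl1 was at 0.619 and 0.784 CPM, from 9 and 12 reads, and fell by 2.09 on the log2 scale (SE 0.40, adjusted p = 0.000374). Etv5 fell by 0.38 and Etv4 by 0.49 on the log2 scale, while Ier2 was not called (log2 −0.10 ± 0.20, adjusted p = 0.705). The Etv4 call was lost without ES replicate 2 (adjusted p = 0.0583) or ES oeCtrl replicate 2 (0.156). The Fos call was lost without either ES oeCtrl replicate (0.0557 and 0.0698).

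In EPS shCtrl against EPS, Egr1, the AP-1 genes and Ier3 were lower, and Myc and Etv4 were higher. In all 5 genes fell and 2 rose, where 56.4% of all genes were called, 27.4% lower and 28.9% higher. Egr1 was at 29.0 and 27.3 CPM in EPS shCtrl (log2 −2.32 ± 0.27, adjusted p = 6.24e-06), Junb at 21.5 and 17.6 CPM (log2 −2.60 ± 0.20, adjusted p = 3.94e-08) and Ier3 at 2.58 and 3.76 CPM (log2 −2.25 ± 0.23, adjusted p = 6.01e-07). All of these lay below every EPS library. Fosl1 was at 1.39 and 1.29 CPM, from 22 reads in each library, and fell by 3.32 on the log2 scale (adjusted p = 6.85e-07). Myc was at 58.4 and 72.4 CPM, above all EPS libraries (log2 2.44 ± 0.18, adjusted p = 1.66e-08). Etv4 was at 318 and 300.1 CPM against 45.7, 43.5 and 37.0 CPM in EPS (log2 2.73 ± 0.14, adjusted p = 3.00e-10). Neither Ier2 (log2 −0.46 ± 0.20, adjusted p = 0.0565) nor Etv5 (log2 0.12 ± 0.09, adjusted p = 0.283) was called. Ier2 passed without EPS replicate 3 (adjusted p = 0.00511), with RLE factors (0.0457), with DESeq2 (0.0300), without a count filter (0.000786) and with the replicate block (3.57e-06).

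The EPS shCtrl libraries were far apart in Fos, at 30.9 and 5.94 CPM. Fos differed from EPS by log2 −2.40 ± 0.74 with both (adjusted p = 0.0219), by −3.95 without EPS shCtrl replicate 1 and by −1.67 without replicate 2 (adjusted p = 0.0915). Without EPS replicate 1 or 2 its adjusted p was 0.0512 or 0.0528, and in a fit of the compared libraries alone it was 0.0840. Every other Fos comparison with EPS shCtrl in the undifferentiated state rests on the same pair.

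Most fibroblast markers fell along with these genes. Of 13 tested, 12 were lower and 1 higher in ES oeCtrl than in ES, and 12 were lower and none higher in EPS shCtrl than in EPS. Of all genes 25.1% and 27.4% were lower in these comparisons. Mean Fn1 went the other way, from 1499 CPM in ES to 2440 CPM in ES oeCtrl and from 1288 CPM in EPS to 1437 CPM in EPS shCtrl. Without Vim and Fn1 the 12 markers summed to 6.26 to 7.32 CPM in ES oeCtrl and 14.2 to 21.1 CPM in EPS shCtrl, far below the sums given above for ES and EPS. Of the whole list of 14, 4 were above 1 CPM in ES oeCtrl and 5 in EPS shCtrl, where Lum, Acta2 and S100a4 were at 0. Their part in the falls of Egr1, Fos, Fosl1, Junb and Ier3 was not tested, and neither was that of the construct itself, since construct and culture cannot be told apart here. The part of the Y-linked and heat shock differences given above was not tested either.

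**Figure D2:**
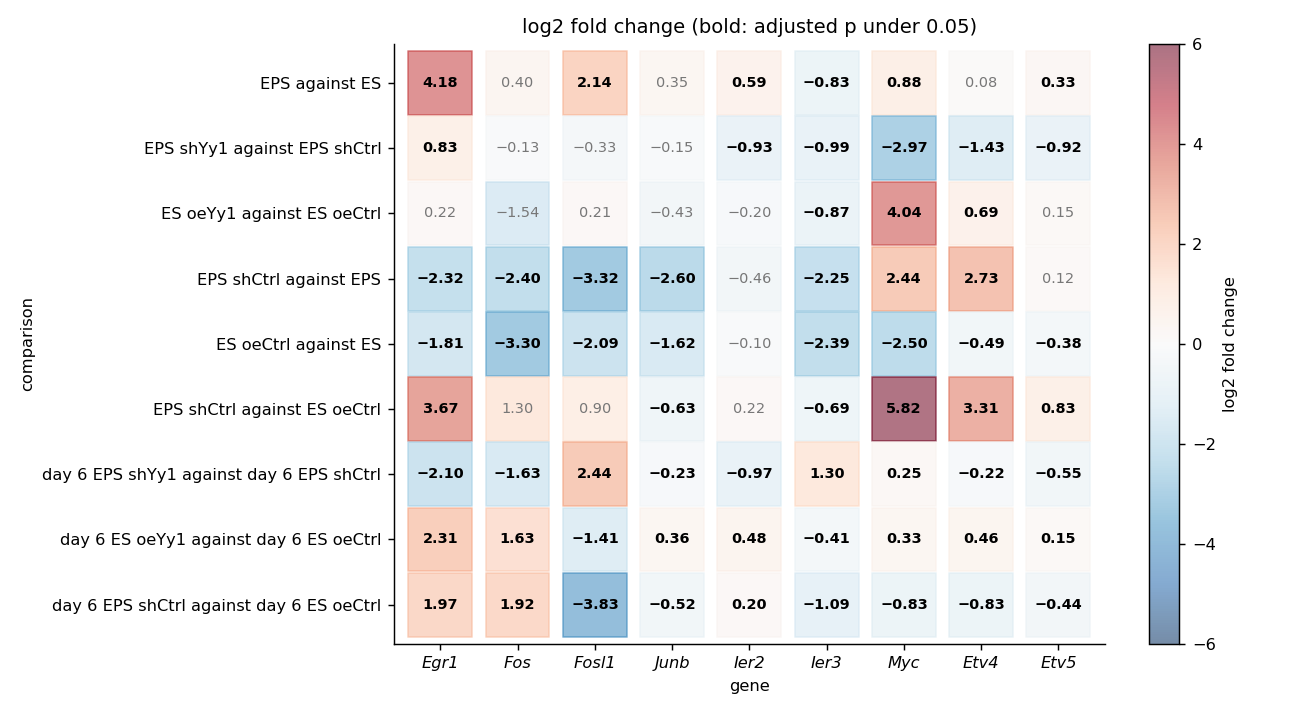
Log2 fold change of each gene (columns) in 9 comparisons (rows, first group against second), coloured from blue (lower) to red (higher), with values called at an adjusted p under 0.05 in bold. Egr1 is at 4.18 for EPS against ES, and both control lines are blue from Egr1 to Ier3 against their untransduced cells, with only the values for Ier2 not called among them.

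In the hairpin line against its own control, Myc and both PEA3-type ETS genes were lower. Myc went from 58.4 and 72.4 CPM in EPS shCtrl to 7.53 and 9.87 CPM in EPS shYy1, a fall by 2.97 on the log2 scale (SE 0.22, adjusted p = 6.29e-08). Etv4 went from 318 and 300.1 CPM to 119 and 120 CPM (log2 −1.43 ± 0.16, adjusted p = 5.52e-06), and Etv5 from 606 and 651 CPM to 338 and 357 CPM (log2 −0.92 ± 0.10, adjusted p = 7.41e-06). Against the untransduced EPS cells, whose Myc was at 9.92 to 11.8 CPM and Etv4 at 37.0 to 45.7 CPM, the control line was higher in Myc, and both lines were higher in Etv4. Ier2 fell from 207 and 217 CPM to 109.9 and 123 CPM (log2 −0.93 ± 0.22, adjusted p = 0.00480). Ier3 fell from 2.58 and 3.76 CPM to 1.61 and 1.75 CPM (log2 −0.99 ± 0.29, adjusted p = 0.0191). Egr1 alone rose, from 29.0 and 27.3 CPM to 40.7 and 63.5 CPM (log2 0.83 ± 0.28, adjusted p = 0.0399). Fos, Fosl1 and Junb were not called, with adjusted p from 0.605 to 0.925.

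This made 1 gene higher and 5 lower of 9, where 28.5% of all genes were called, 15.1% higher and 13.3% lower. The median log2 difference was −0.92, against −0.01 over all genes. The calls of Myc, Etv4 and Etv5 were kept when any 1 library was left out. Egr1 was not called without EPS shCtrl replicate 1 (adjusted p = 0.124), EPS shCtrl replicate 2 (0.169) or EPS shYy1 replicate 2 (0.347). Ier3 was lost without EPS shCtrl replicate 2 (0.231), EPS shYy1 replicate 1 (0.0989) or replicate 2 (0.0796) and in a fit of the compared libraries alone (0.102), and Ier2 without EPS shYy1 replicate 1 (0.0501). For Fos, log2 −0.13 with all libraries became 1.42 without EPS shCtrl replicate 1. Summed Y-linked genes, given above, also differed between these lines, and their part in the results was not tested.

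With Yy1 overexpression in ES cells Myc and Etv4 were higher. Myc went from 1.17 and 1.11 CPM in ES oeCtrl to 18.1 and 19.9 CPM in ES oeYy1 (log2 4.04 ± 0.28, adjusted p = 3.94e-08). Both values of ES oeYy1 also lay above the 4.80 to 7.30 CPM of untransduced ES cells. Etv4 went from 33.9 and 27.8 CPM to 51.2 and 48.5 CPM (log2 0.69 ± 0.17, adjusted p = 0.00414). Ier3 fell from 5.57 and 4.64 CPM to 2.55 and 3.03 CPM (log2 −0.87 ± 0.27, adjusted p = 0.0187). Egr1 stayed near its lowest level, with 2.34 and 2.03 CPM against 2.36 and 2.75 CPM (log2 0.22 ± 0.46, 95% interval −0.69 to 1.13, adjusted p = 0.759). Fos was at 1.96 and 3.03 CPM against 7.98 and 6.47 CPM, a difference that did not pass the test in the fit of all 14 undifferentiated libraries (log2 −1.54 ± 1.04, adjusted p = 0.304). In a fit of these 4 libraries alone Fos passed (adjusted p = 7.49e-05).

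Of the 9 genes 2 were higher and 1 lower, where 32.0% of all genes were called, 14.8% higher and 17.1% lower. With the 4 libraries alone 7 of 9 were called, 3 higher and 4 lower, while the calls over all genes went from 5255 to 8149. Ier3 was lost without ES oeCtrl replicate 1 (adjusted p = 0.123), ES oeYy1 replicate 1 (0.140) or ES oeYy1 replicate 2 (0.0558), and Etv4 without ES oeCtrl replicate 2 (0.0630). Myc kept its call when any 1 library was left out. Myc and Etv4 were thus lower with the hairpin and higher with overexpression, and Ier3 was lower in both. Summed heat shock and Y-linked genes, given above, also differed between ES oeYy1 and ES oeCtrl, and their part was not tested.

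Set against each other, the control lines of EPS and ES origin differed in Myc, Egr1 and both ETS genes. They also carried different constructs and came from cells kept in different media, so origin, construct and medium cannot be told apart. Untransduced EPS against ES gave log2 0.88 for Myc, 4.18 for Egr1, 0.08 for Etv4 and 0.33 for Etv5. Against untransduced cells Myc differed by 2.44 in EPS shCtrl and −2.50 in ES oeCtrl, and Egr1 by −2.32 and −1.81. Etv4 differed by 2.73 and −0.49, and Etv5 by 0.12 and −0.38. EPS shCtrl exceeded ES oeCtrl in Myc by log2 5.82 ± 0.27 (adjusted p = 2.33e-10), in Egr1 by 3.67 ± 0.37 (adjusted p = 2.55e-06), in Etv4 by 3.31 ± 0.17 (adjusted p = 6.84e-10) and in Etv5 by 0.83 ± 0.10 (adjusted p = 9.25e-06). Junb (log2 −0.63 ± 0.21, adjusted p = 0.0252) and Ier3 (log2 −0.69 ± 0.26, adjusted p = 0.0422) were lower. That made 4 higher and 2 lower of 9, where 40.4% of all genes were called, 19.7% higher and 20.7% lower. Junb was no longer called after leaving out EPS shCtrl replicate 2 (adjusted p = 0.148) or ES oeCtrl replicate 1 (0.140). Ier3 was no longer called after leaving out EPS shCtrl replicate 1 (0.291), ES oeCtrl replicate 1 (0.203) or ES oeCtrl replicate 2 (0.0707), with RLE factors (0.0503), with DESeq2 (0.0514) and in a fit of the compared libraries alone (0.132). Fos, at log2 1.30, became −0.25 without EPS shCtrl replicate 1 and was called in neither fit.

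By day 6 Junb and Ier3 had risen in all 4 lines and Etv5 had fallen in all 4. Junb went up by log2 2.45 ± 0.09 in ES oeCtrl, 3.21 ± 0.09 in ES oeYy1, 2.55 ± 0.09 in EPS shCtrl and 2.47 ± 0.09 in EPS shYy1. Its day 6 libraries held 94.4 to 223 CPM, and those of the same lines before held 17.6 to 32.3 CPM. Untransduced ES and EPS libraries, at 79.8 to 129 CPM of Junb, overlapped the day 6 range. Ier3 rose by log2 3.52 ± 0.14, 3.95 ± 0.16, 3.11 ± 0.15 and 5.38 ± 0.17 in the same order. Etv5, at 338 to 651 CPM before, was at 68.8 to 160.2 CPM on day 6, and its falls measured log2 −1.35 ± 0.08, −1.38 ± 0.08, −2.63 ± 0.08 and −2.27 ± 0.08. Fos rose in all 4 as well, by log2 2.73 ± 0.58, 5.87 ± 0.67, 3.34 ± 0.50 and 1.83 ± 0.51, the last call being lost without EPS shYy1 replicate 2 (adjusted p = 0.0793). The rise of Fos in EPS shCtrl was 4.92 without replicate 1 of the undifferentiated line and 2.66 without replicate 2.

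The remaining genes changed in some lines and not in others. Egr1 rose in ES oeCtrl (log2 4.86 ± 0.21), ES oeYy1 (6.91 ± 0.20) and EPS shCtrl (3.14 ± 0.14), each with adjusted p no higher than 6.15e-12. In EPS shYy1 it was at 40.7 and 63.5 CPM before and at 60.5 and 56.1 CPM on day 6 (log2 0.21 ± 0.14, adjusted p = 0.183). Without EPS shYy1 replicate 2 of the undifferentiated line this became 0.58 (adjusted p = 6.41e-05). Myc rose by log2 6.53 ± 0.20 in ES oeCtrl, 2.79 ± 0.13 in ES oeYy1 and 3.08 ± 0.15 in EPS shYy1, and was not called in EPS shCtrl (log2 −0.13 ± 0.12, adjusted p = 0.329), where it had been at 58.4 and 72.4 CPM already. In EPS shCtrl a fall in Myc was called without replicate 1 of the undifferentiated line (adjusted p = 0.0104). All day 6 libraries held Myc at 64.1 to 151 CPM.

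Etv4 rose by log2 1.07 ± 0.09 in ES oeCtrl and 0.81 ± 0.08 in ES oeYy1 and fell by 3.08 and 1.87 on the log2 scale in EPS shCtrl and EPS shYy1. Fosl1 rose by log2 3.77 ± 0.30, 2.11 ± 0.32 and 1.78 ± 0.30 in ES oeCtrl, ES oeYy1 and EPS shYy1. In EPS shCtrl it went from 1.39 and 1.29 CPM to 0.785 and 0.704 CPM (log2 −0.98 ± 0.35, adjusted p = 0.0171). That last call rests on 14 to 22 reads per library and was lost whichever of the 4 libraries was left out, with adjusted p from 0.0513 to 0.0815. Ier2 fell by 0.64 in ES oeCtrl, 0.68 in EPS shCtrl and 0.72 in EPS shYy1 on the log2 scale, and in ES oeYy1 it was not called (log2 0.01 ± 0.08, 95% interval −0.14 to 0.16).

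Counted over the 9 genes, 4 rose and 4 fell in EPS shCtrl, where 74.1% of all genes were called, 37.5% higher and 36.6% lower. In EPS shYy1 5 rose and 3 fell, where 75.4% were called, 37.9% higher and 37.4% lower. In ES oeCtrl 7 rose and 2 fell, where 73.0% were called, 37.1% higher and 35.9% lower. In ES oeYy1 7 rose and 1 fell, where 72.7% were called, 35.7% higher and 36.9% lower, so most genes of any kind had changed. The difference in the day 6 change between EPS shCtrl and ES oeCtrl was tested directly, though origin and construct cannot be told apart in it. It was negative for 5 genes and positive for none, where 48.7% of all genes were called, 22.8% positive and 25.9% negative. Myc led with log2 −6.67 ± 0.25 (adjusted p = 1.50e-13), followed by Fosl1 (−4.75 ± 0.48), Etv4 (−4.15 ± 0.12), Egr1 (−1.72 ± 0.28) and Etv5 (−1.28 ± 0.11). Without EPS shCtrl replicate 1 Fos (2.18, adjusted p = 0.00137) and Ier3 (adjusted p = 0.0191) were called as well. The day 6 libraries also held far more Krt8 and Krt18, which made up most of the trophoblast marker sum, and more Col1a1 (186 to 322 CPM, against 0.529 to 7.09 CPM in the same lines before). The part of cell make-up in these changes was not tested, and neither was that of the change of medium.

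**Figure D3:**
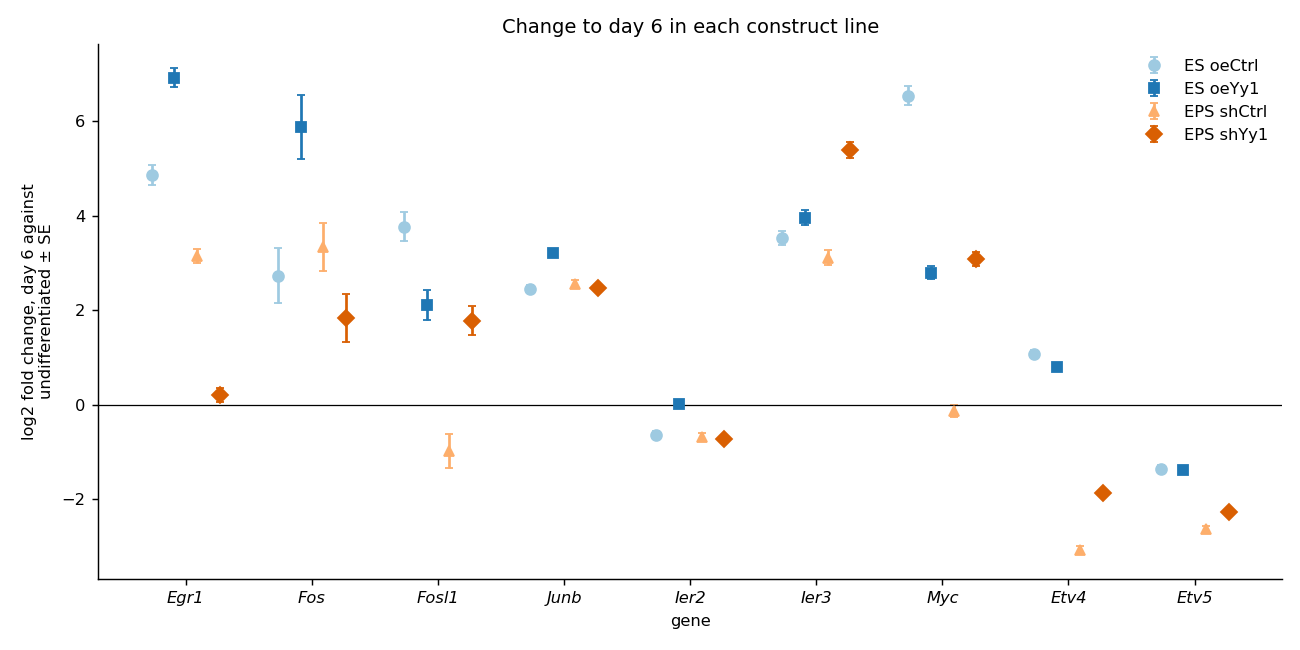
Log2 fold change ± SE (edgeR) of each gene between day 6 and the undifferentiated state, for the 4 construct lines (n = 2 libraries per line and stage). Junb and Ier3 lie above 2 in all 4 lines and Etv5 below −1, while Etv4 is above 0 in the ES-derived lines and below 0 in the EPS-derived ones.

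On day 6 Egr1 and Fos were high in EPS shCtrl and in ES oeYy1 and low in the other lines. Egr1 was at 278 and 269.7 CPM in EPS shCtrl and at 60.5 and 56.1 CPM in EPS shYy1 (log2 −2.10 ± 0.05, adjusted p = 2.50e-39). It was at 312 and 333 CPM in ES oeYy1 and at 59.6 and 67.2 CPM in ES oeCtrl (log2 2.31 ± 0.05, adjusted p = 1.97e-40). Fos was at 200.5 and 199 CPM in EPS shCtrl and at 57.8 and 59.7 CPM in EPS shYy1 (log2 −1.63 ± 0.05, adjusted p = 4.27e-35). In ES oeYy1 it was at 152 and 152 CPM, and in ES oeCtrl at 49.1 and 46.3 CPM (log2 1.63 ± 0.05, adjusted p = 9.22e-33). The libraries of each line were close together, so every one of these groups stood apart from its control.

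Ier3 and Fosl1 differed from their control lines in the directions opposite to Egr1 and Fos, though the Fosl1 values of EPS shYy1 and ES oeYy1 overlapped. Ier3 was at 28.8 and 31.9 CPM in EPS shCtrl, the lowest of the day 6 lines, and at 66.3 and 69.9 CPM in EPS shYy1 (log2 1.30 ± 0.07, adjusted p = 7.22e-24). It was at 56.9 and 60.0 CPM in ES oeCtrl and at 46.9 and 43.6 CPM in ES oeYy1 (log2 −0.41 ± 0.07, adjusted p = 2.99e-06). Fosl1 was at 0.785 and 0.704 CPM in EPS shCtrl and 3.52 and 3.93 CPM in EPS shYy1 (log2 2.44 ± 0.28, adjusted p = 3.72e-11), and at 9.68 and 9.61 CPM in ES oeCtrl and 3.97 and 3.48 CPM in ES oeYy1 (log2 −1.41 ± 0.19, adjusted p = 8.80e-09).

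The other genes had smaller differences. Ier2 differed by log2 −0.97 ± 0.05 with the hairpin and 0.48 ± 0.05 with overexpression, Junb by −0.23 ± 0.05 and 0.36 ± 0.05, Etv5 by −0.55 ± 0.05 and 0.15 ± 0.05, and Etv4 by −0.22 ± 0.07 and 0.46 ± 0.06. Myc was slightly higher in both, by 0.25 ± 0.07 and 0.33 ± 0.06. Without day 6 EPS shYy1 replicate 1 or day 6 EPS shCtrl replicate 2 the hairpin call of Etv4 was lost (adjusted p = 0.0698 and 0.0905). The overexpression call of Etv5 was lost without day 6 ES oeCtrl replicate 1 (0.0638), day 6 ES oeYy1 replicate 2 (0.130) and with DESeq2 (0.0695).

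All 9 genes were called in both day 6 comparisons, 3 higher and 6 lower with the hairpin, where 61.3% of all genes were called, 30.9% higher and 30.4% lower. With overexpression 7 were higher and 2 lower, where 41.9% were called, 20.3% higher and 21.6% lower. The comparisons share no libraries. The 2 directions were opposite for 8 of the 9 genes, Myc being the exception. Of the 5071 genes of any kind called in both, 4333 (85.4%) were opposite too, so the share among the 9 was near the background. In the undifferentiated state 3 of the 9 were called in both manipulations and 2 of them were opposite, against 80.4% of 2091 genes.

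Several other measures also moved in opposite directions with the hairpin and with overexpression on day 6. Krt8 and Krt18, keratins of simple epithelium and trophoblast, were at 1657 to 1676 and 1224 to 1241 CPM in day 6 EPS shCtrl and at 3481 to 3601 and 2527 to 2567 CPM in day 6 EPS shYy1. They were at 3136 to 3186 and 2178 to 2184 CPM in day 6 ES oeCtrl and at 1697 to 1819 and 1266 to 1318 CPM in day 6 ES oeYy1. The trophoblast list they belong to was split. Of 8 tested, 5 were higher and 3 lower with the hairpin, where 30.9% and 30.4% of all genes were. With overexpression 4 were higher and 4 lower, where 20.3% and 21.6% of all genes were. The 12 fibroblast markers without Vim and Fn1 summed to 775 to 776 CPM in day 6 EPS shCtrl, 2572 to 2596 CPM in EPS shYy1, 2767 to 2884 CPM in ES oeCtrl and 1402 to 1473 CPM in ES oeYy1. Summed with Vim and Fn1, the 14 markers were at 6570 to 6652 CPM in day 6 EPS shCtrl, 7920 to 7946 CPM in EPS shYy1, 7447 to 7614 CPM in ES oeCtrl and 8148 to 8377 CPM in ES oeYy1, so the whole list was highest in ES oeYy1. Fn1 was at 5763 to 6108 CPM there and at 3672 to 3697 CPM in ES oeCtrl, and Col1a2 was at 120.2 to 120.5 CPM in EPS shCtrl and at 66.7 to 68.4 CPM in EPS shYy1. The 6 mesendoderm markers summed to 419 to 423 CPM in day 6 EPS shCtrl, 209.9 to 219.8 CPM in EPS shYy1, 344 to 351 CPM in ES oeCtrl and 619.9 to 693 CPM in ES oeYy1. By test 5 of these 6 were lower and 1 higher with the hairpin, where 30.4% and 30.9% of all genes were. With overexpression 5 were higher and 1 lower, where 20.3% and 21.6% of all genes were. Their part, and that of the Y-linked difference, was not tested, and Yy1 itself differed by test in the overexpression pair but not in the hairpin pair.

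Between the day 6 controls, EPS shCtrl was above ES oeCtrl in Egr1 (log2 1.97 ± 0.05), Fos (1.92 ± 0.05) and Ier2 (0.20 ± 0.05). It was below ES oeCtrl in Fosl1 (−3.83 ± 0.24), Ier3 (−1.09 ± 0.07), Myc (−0.83 ± 0.06), Etv4 (−0.83 ± 0.07), Junb (−0.52 ± 0.05) and Etv5 (−0.44 ± 0.05). All 9 were called, where 64.1% of all genes were, 31.6% higher and 32.4% lower.

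**Figure D4:**
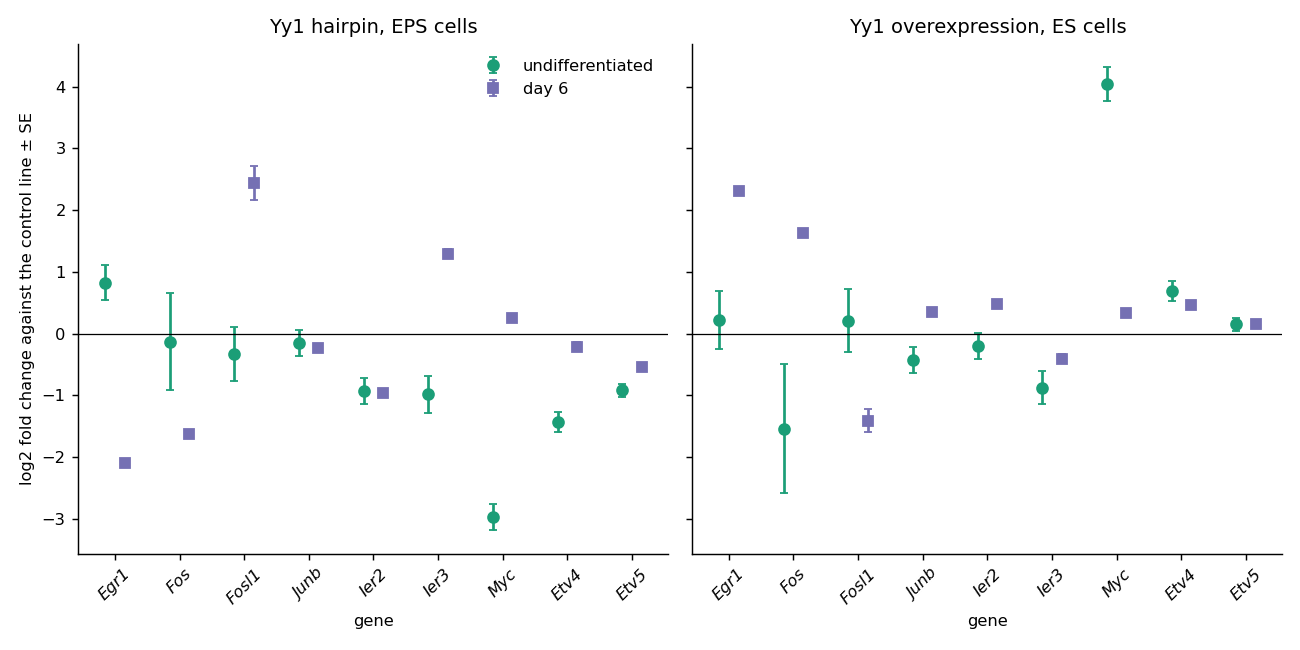
Log2 fold change ± SE (edgeR) of each gene against the matching control line, for the Yy1 hairpin in EPS cells (left) and Yy1 overexpression in ES cells (right), undifferentiated (circles) and on day 6 (squares). With the hairpin Egr1 goes from 0.83 to −2.10 and Myc from −2.97 to 0.25, and with overexpression Myc goes from 4.04 to 0.33.

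Whether each effect changed between the stages was tested as a difference of differences. For the hairpin it became more negative on day 6 for Egr1 (log2 −2.94 ± 0.20, adjusted p = 1.37e-08). It became more positive for Myc (3.21 ± 0.19, adjusted p = 3.18e-10), Fosl1 (2.76 ± 0.47), Ier3 (2.28 ± 0.26), Etv4 (1.21 ± 0.12) and Etv5 (0.36 ± 0.11). For overexpression it became more positive for Fos (3.14 ± 0.99, adjusted p = 0.0368), Egr1 (2.05 ± 0.38, adjusted p = 0.000510), Junb (0.75 ± 0.12) and Ier2 (0.65 ± 0.11). It became more negative for Myc (−3.74 ± 0.28, adjusted p = 6.96e-09) and Fosl1 (−1.65 ± 0.49). That is 6 of 9 for the hairpin, 5 of them positive, where 41.5% of all genes were called, 21.4% positive and 20.1% negative. It is 6 of 9 for overexpression too, 4 of them positive, where 37.6% were called, 17.7% positive and 19.9% negative.

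Several of these calls were lost when a library was left out. The Fos change with overexpression was lost without ES oeCtrl replicate 1 (adjusted p = 0.119) or 2 (0.0818), ES oeYy1 replicate 1 (0.123) or 2 (0.0845), day 6 ES oeCtrl replicate 1 (0.0736) or 2 (0.0787) and day 6 ES oeYy1 replicate 1 (0.0700) or 2 (0.0722). Its log2 value stayed between 2.88 and 3.51 in these fits. A change of Etv4 with overexpression was called without ES oeCtrl replicate 1 (−0.39, adjusted p = 0.0218). The Fosl1 change with overexpression was lost without ES oeYy1 replicate 2 (0.118), and the Etv5 change with the hairpin without EPS shCtrl replicate 2 (0.0666) or day 6 EPS shCtrl replicate 2 (0.0704). The Fos change with the hairpin, not called at log2 −1.50 ± 0.72, was called without EPS shCtrl replicate 1 (−3.08, adjusted p = 6.67e-05) or replicate 2 (0.0487).

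Among genes that restrain ERK signalling most were higher in EPS than in ES cells, where cell state and medium cannot be told apart. Of 12 such genes, the Sprouty and Spred families, the Dusp phosphatases and Il17rd, 9 rose and 1 fell in EPS against ES, with a median log2 of 0.98, where 13.8% of all genes were higher and 16.9% lower. Spry4 was higher by log2 3.94 ± 0.21 (adjusted p = 2.21e-09), and Dusp14 was the one that fell (log2 −2.09 ± 0.13, adjusted p = 9.80e-09). With the hairpin 7 of 12 fell and none rose (median −0.97; 13.3% and 15.1% of all genes), Spry4 by 2.67 and Spry2 by 1.75 on the log2 scale. With overexpression 6 rose and none fell (median 0.43; 14.8% and 17.1% of all genes), Spry4 by log2 3.28 ± 0.32 (adjusted p = 1.44e-06) and Spred3 by 1.53 ± 0.20. Between the control lines 8 were higher and 1 lower in EPS shCtrl (19.7% and 20.7% of all genes), Dusp6 by log2 2.94 ± 0.18. On day 6 the hairpin left 3 higher and 8 lower, where 30.9% and 30.4% of all genes were, and overexpression 7 higher and 3 lower, where 20.3% and 21.6% were.

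Of 19 genes of the kinase cascade, from Hras to Rasa1, 2 rose and 3 fell in EPS against ES (median −0.12), 3 rose and 2 fell with the hairpin, and none rose and 3 fell with overexpression. Of all genes, 30.6%, 28.5% and 32.0% were called in these comparisons. In EPS shCtrl against EPS 9 were higher and 1 lower, in ES oeCtrl against ES 11 were higher and 1 lower, and in EPS shCtrl against ES oeCtrl 2 were higher and 5 lower, where 56.4%, 50.6% and 40.4% of all genes were called. Mapk3, which encodes ERK1, was higher in EPS by log2 0.70 ± 0.09 (adjusted p = 2.37e-05), and the scaffold gene Ksr1 was lower by 1.11 ± 0.16 (adjusted p = 7.63e-05). On day 6 Mapk3 differed by log2 −1.25 ± 0.06 with the hairpin and 0.71 ± 0.06 with overexpression, and 10 of 19 rose and 4 fell with the hairpin, where 61.3% of all genes were called. Of 8 genes for SRF and its partners, 1 rose in EPS, 1 rose and 2 fell with the hairpin, and 1 rose and 1 fell with overexpression, Srf by log2 0.72 ± 0.13 (adjusted p = 0.000396).

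Other immediate early genes shared the low level of the construct lines. Of 23 tested, 20 were lower and 1 higher in EPS shCtrl than in EPS (median −2.23), with Klf6 down by 3.67 and Btg2 by 2.23 on the log2 scale, and 16 were lower and none higher in ES oeCtrl than in ES (median −1.50). Of all genes 27.4% and 25.1% were lower in these comparisons. In EPS against ES 7 rose and 1 fell, Maff by log2 1.46 ± 0.19 and Plk3 by 1.09 ± 0.15. With the hairpin 6 rose and 2 fell, among them Jun (log2 1.29 ± 0.20, adjusted p = 0.000133) and Cyr61 (2.14 ± 0.30), both higher. With overexpression 1 rose and 10 fell, Zfp36 by 2.36 and Btg2 by 1.31 on the log2 scale. The shares of all genes called in these comparisons are those given for the kinase cascade. By day 6 between 18 and 21 of 24 had risen in each line, where 35.7 to 37.9% of all genes had. On day 6 Ctgf, a target of SRF and YAP signalling, differed by log2 2.35 ± 0.06 with the hairpin and −1.20 ± 0.06 with overexpression, and Fosb, the paralogue of Fos, by −1.35 ± 0.08 and 1.55 ± 0.08.

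Of the remaining AP-1 genes, 9 were tested in undifferentiated cells. In EPS 3 rose and none fell, 2 rose and none fell with the hairpin, none rose and 5 fell with overexpression, and 8 were lower in each control line than in its untransduced cells, against 27.4% and 25.1% of all genes. Atf3 and Fosl2 fell by 2.08 and 1.87 on the log2 scale with overexpression. Among 9 relatives of the ETS genes, Etv1, the third PEA3 gene, fell by 2.00 on the log2 scale with the hairpin (SE 0.16, adjusted p = 1.54e-07) and rose by log2 3.25 ± 0.17 with overexpression (adjusted p = 2.43e-09), as Etv4 did. In all 2 of these 9 rose and 3 fell with the hairpin, 2 rose and 1 fell with overexpression, and none rose and 4 fell in EPS. Of all genes 28.5% were called with the hairpin, 32.0% with overexpression and 30.6% in EPS. These shares also apply to the AP-1 counts above and the Myc network counts below. Of 11 genes of the Myc network, 1 rose and 1 fell with the hairpin, Max, the obligate partner of Myc, falling by 0.48. With overexpression 1 rose and 1 fell too, Mycl by log2 1.01 ± 0.17 (adjusted p = 0.000313) being the one that rose.

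The genes most like each of the 9 over the 10 group means were found by Pearson's r of log2(CPM + 1), among 10651 genes with a mean of at least 5 CPM. These points share libraries and stages, so r is only a description. Junb was most like Prdx2 (r = 0.993), H2afj (0.980) and Shfm1 (0.979), and Ier3 most like Creb3 (0.988), F3 (0.987) and Fosl2 (0.982). Fos was most like Fosb (0.984), Pfdn2 (0.975) and Mettl9 (0.967), and Myc most like Fjx1 (0.984), Nfkb1 (0.957) and Basp1 (0.953). Egr1 was most like Lef1 (0.937), Reep2 (0.933) and Parp12 (0.930), Etv4 most like Pinx1 (0.961), Tcf15 (0.923) and Akr1b3 (0.915), and Etv5 most like Polr3e (0.988), Zfp850 (0.986) and Snrnp40 (0.980). Fosl1 (Cdk17, Klrg2 and Zfand2a, each 0.867) and Ier2 (Surf6 at 0.905, Hnrnpd at 0.898 and Hnrnpk at 0.889) had no gene above 0.91. Within the 9, r was highest for Junb and Ier3 (0.936), Fos and Junb (0.862) and Egr1 and Fos (0.834), and lowest for Ier3 and Etv5 (−0.756).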

How the data were processed

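RNA-seq was counted in 22 of 63 samples, in 10 groups taken from the sample titles; the other 41 were not analysed here. The authors deposited whole-number read counts per gene symbol with no normalization, 1 table per library. Per the submitters' processing notes CASAVA, Bowtie2 2.3.2, mm10 and GRCm38.p6 were used in the series; the counter and its strand setting are not given in the sources used here, so reads of overlapping or antisense genes cannot be told apart. The 5 summary lines were left out of library sizes and tests: 5.61 to 8.62% of reads lay outside genes, 3.70 to 5.32% were ambiguous and 5.45 to 6.66% aligned more than once.

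Tests used edgeR 4.0.16 in R 4.3.3 (TMM, filterByExpr, robust quasi-likelihood F-test), with Benjamini-Hochberg adjustment over all genes and a threshold of 0.05, in 3 models: the 14 undifferentiated libraries, the 8 day 6 libraries, and the 16 construct libraries of both stages, from which day 6 changes and differences between effects came. Values after ± are SE, and 95% intervals assume a normal error. The tests were tried on simulated counts. Alternatives were RLE factors, DESeq2 1.42.0, no count filter, fits of only the compared libraries, the replicate number as a block, and leaving out each library. Same-numbered EPS and ES libraries deviated together (r 0.323, 0.359 and 0.575), so their block values are printed where a call changes; EPS 1 with ES 2 (0.351) and EPS 2 with ES 1 (0.426) did as well, so the numbers set only replicate 3 apart. Inside the groups no library pair was a copy, and pairs across groups were not checked.

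The 9 genes, the lists (other immediate early, other AP-1, SRF partner, ETS relative, Myc network, ERK cascade and ERK feedback genes, and markers of pluripotent, primitive endoderm, trophoblast, mesendoderm, neural and fibroblast cells, Y-linked and heat shock genes) and the motifs were chosen with earlier results of these data, or the sequences, known. Named besides the 9 are Yy1, up to 2 called genes of smallest p per list and comparison, and 3 genes most like each of the 9. Genes named as markers were picked to describe cell types. RefSeq promoter sequences (GRCm38.p6) are shown for 4 of the 9 genes. Chromosome 18, where Egr1 lies, was left out when these stretches were picked, so no Egr1 stretch is among them.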

Additional observations from a re-analysis of the deposited data

Results flagged for a closer look

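Several differences between groups passed a test of the difference itself, each an interaction term in the model of both stages (edgeR, log2, adjusted p below the threshold). Between stages, the effect of the Yy1 hairpin differed by −2.94 for Egr1, 2.76 for Fosl1, 2.28 for Ier3, 3.21 for Myc, 1.21 for Etv4 and 0.36 for Etv5, positive values meaning a more positive effect on day 6. The effect of Yy1 overexpression differed between stages by 2.05 for Egr1, 3.14 for Fos, −1.65 for Fosl1, 0.75 for Junb, 0.65 for Ier2 and −3.74 for Myc. The day 6 change of EPS shCtrl minus that of ES oeCtrl was −1.72 for Egr1, −4.75 for Fosl1, −6.67 for Myc, −4.15 for Etv4 and −1.28 for Etv5. Among all genes 41.5, 37.6 and 48.7% passed the same 3 tests.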

How the results depend on the processing

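The counts of the 9 genes called kept within 1.5 times under RLE factors, DESeq2, no count filter and the replicate block in all 16 comparisons, and in fits of only the compared libraries in all but ES oeYy1 against ES oeCtrl, where 7 were called in place of 3. In those fits Ier2 in EPS against ES (adjusted p = 0.0631) and the day 6 change of Fosl1 in EPS shCtrl (0.0550) were not called. Leaving out each library in turn gave 5 to 7 for EPS against ES, 4 to 5 for the hairpin, 2 to 2 for overexpression, 6 to 8 for EPS shCtrl against EPS and for ES oeCtrl against ES, 8 to 9 for each day 6 manipulation and 5 to 7 for the stage test of the hairpin. Over all genes, the 5255 called with overexpression became 8149 with only the compared libraries and 3065 to 3614 with a library left out, and the 4682 called with the hairpin became 2571 to 4853; the cause was not tested.

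With the replicate block 7 genes were called for EPS against ES, 4 for overexpression, 8 for EPS shCtrl against EPS and 9 for ES oeCtrl against ES, while the calls over all genes went from 5033 to 6392, from 5255 to 6552, from 9270 to 10079 and from 8323 to 9244. Besides Junb in EPS, it called Junb with overexpression (log2 −0.43, adjusted p = 0.0232) and Ier2 in EPS shCtrl against EPS (−0.65, 3.57e-06) and in ES oeCtrl against ES (−0.27, 0.0158), and it changed no other call. The labels pair no libraries of the construct lines.

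Some values not called with all libraries changed sign, and their ranges over fits that leave out 1 library were as follows. Etv4 in EPS against ES ran from −0.057 to 0.21, Ier2 in ES oeCtrl against ES from −0.29 to 0.084, Fos with the hairpin from −0.86 to 1.42, Fos between the control lines from −0.25 to 2.03 and Fosl1 with overexpression from −0.11 to 0.48. In the change to day 6, Myc in EPS shCtrl ran from −0.28 to 0.14 and Egr1 in EPS shYy1 from −0.058 to 0.58. In the test of the day 6 change between the control lines, Fos ran from −0.094 to 2.18 and Ier2 from −0.095 to 0.082. In the stage tests, Ier2 with the hairpin ran from −0.18 to 0.043 and Etv5 with overexpression from −0.057 to 0.018, with 0.0015 when no count filter was used. Low counts limit Fosl1, which rests on 9 to 301 reads per library.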
